A study of Mus musculus with 6 samples.

Results

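The 9 genes described here mark macrophages that are often called profibrotic or scar-associated: Spp1, Gpnmb, Trem2, Cd63, Lgals3, Fabp5, Apoe, Mmp12 and Arg1. They were chosen by name out of 32285 genes in the count matrices, without a rule on their values but with earlier results of these data known. The lungs came from 6 male mice, 12 weeks old, on a C57BL/6 background with human CTLA4 sequence (exons 2 and 3) knocked in, so that the human antibody ipilimumab binds their CTLA-4, a brake on T cells. All 6 mice received bleomycin, a drug that injures the lung epithelium and is followed by fibrosis, at 1.25 U/kg into the oropharynx in 2 doses given 2 weeks apart. From day 21 after the last bleomycin dose 3 mice were injected with ipilimumab and 3 with an IgG1 isotype control antibody. Both were given at 5 mg/kg 2 times a week for 4.5 weeks. No mouse without bleomycin was among the samples, so that the levels below are levels in injured lungs. The right lung of each mouse was dissociated and made into 1 droplet-based library, in which unique molecular identifiers (UMIs) count captured RNA molecules, and the mouse was therefore the replicate.

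Macrophages of this kind take up dying cells and lipid. Trem2 is a surface receptor for lipids and lipoproteins that signals through the adaptor Tyrobp, Apoe is a lipoprotein that carries lipid out of the cell and is itself a ligand of Trem2, and Fabp5 carries fatty acids inside the cell. Gpnmb, Cd63 and Lgals3 belong to the lysosomal and endosomal compartment, Lgals3 (galectin-3) being a lectin that is also secreted and binds damaged lysosomes. Spp1 (osteopontin) is a secreted matrix protein that binds Cd44 and integrins on fibroblasts and leukocytes, Mmp12 is a protease that cuts elastin, and Arg1 turns arginine into ornithine, a precursor of proline for collagen. In the lung, resident alveolar macrophages sit in the air space and recycle surfactant, interstitial macrophages sit in the tissue around vessels and airways, and monocytes that enter after injury can become either.

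After quality filters and removal of doublets 24254 cells were kept, 3268 to 4348 per mouse, from libraries of 37666042 to 48612412 UMIs. The library of ipilimumab mouse 1 stood apart: 22056 barcodes held at least 100 UMIs, against 4834 to 6230 in the other libraries, and 78.9% of its UMIs lay in called cells, against 92.4% to 93.1%. Pairs of libraries shared 0 to 8 cell barcodes over 15 pairs. Cells were clustered with the 9 genes and their related lists held out, 62 genes in all, so that the clusters were not formed from the values reported here. A cluster was called "X-like" from fixed markers, which gave 19 named classes and left 226 cells (0.932%) unnamed. The alveolar macrophage-like class held 3334 cells (476, 835 and 293 in the 3 IgG1 mice and 382, 743 and 605 in the 3 ipilimumab mice) and all 9 of its markers. The interstitial macrophage-like class was small, with 59 cells (13, 15 and 3, and 12, 4 and 12). It held all 7 of its own markers, which summed to 9666 to 13960 CPM over mice with at least 5 cells. Of the 9 markers of alveolar macrophages 6 had UMIs there, with a sum of 93.0 to 225 CPM, and Marco, Krt79 and Fabp1 were at 0. Markers of classical monocytes summed to 515 to 2042 CPM in the same cells. IgG1 mouse 3 and ipilimumab mouse 2 had fewer than 5 of these cells, so that interstitial values come from 2 mice per group. There were 460 classical and 488 nonclassical monocyte-like cells. Levels are given as CPM, the UMIs of a gene per 1000000 UMIs of all cells of the class in a mouse.

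Of the 9 genes, 7 had a promoter entry in RefSeq (GRCm38.p6, 11 start sites), and 250 bases upstream of each start were searched on both strands for 4 sets of letters: CACGTG (an E-box, which takes factors such as Mitf and Tfeb), TCATGTG (the M-box of Mitf), TGAGTCA (AP-1) and GAGGAAG (a core bound by PU.1, the lineage factor of macrophages). GAGGAAG overlaps none of the others. It was found upstream of Spp1, Mmp12, Cd63 and Trem2, beginning 113, 87, 60 and 41 bases before the start, and 10.6% of the 32851 promoter windows of this length hold it. The 4 windows are shown because these genes share the letters. All 4 genes were higher in one cluster of alveolar macrophage-like cells than in the other, as described further on. This does not set them apart, since Gpnmb and Apoe, whose windows lack the letters, were higher there too. A link between the letters and the levels was not tested. Capitals mark GAGGAAG or its reverse complement, and each sequence reads 5′ to 3′ on the gene's strand, which is the plus strand.
Spp1, chr5:104434861-104435110: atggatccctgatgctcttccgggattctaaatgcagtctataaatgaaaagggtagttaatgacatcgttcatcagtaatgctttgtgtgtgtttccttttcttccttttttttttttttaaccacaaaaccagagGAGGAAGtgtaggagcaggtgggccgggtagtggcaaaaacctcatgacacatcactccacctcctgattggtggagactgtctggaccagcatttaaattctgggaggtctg
Mmp12, chr9:7344147-7344396: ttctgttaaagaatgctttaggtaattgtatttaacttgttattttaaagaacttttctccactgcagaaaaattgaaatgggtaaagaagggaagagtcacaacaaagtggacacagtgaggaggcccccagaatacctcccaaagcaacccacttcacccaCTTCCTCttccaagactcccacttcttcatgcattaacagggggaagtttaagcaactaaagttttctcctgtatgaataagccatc
Cd63, chr10:128909095-128909344: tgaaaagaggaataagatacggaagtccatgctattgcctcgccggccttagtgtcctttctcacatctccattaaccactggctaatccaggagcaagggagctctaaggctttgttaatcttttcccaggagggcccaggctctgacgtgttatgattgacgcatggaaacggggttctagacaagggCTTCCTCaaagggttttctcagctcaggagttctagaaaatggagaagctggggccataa
Trem2, chr17:48346151-48346400: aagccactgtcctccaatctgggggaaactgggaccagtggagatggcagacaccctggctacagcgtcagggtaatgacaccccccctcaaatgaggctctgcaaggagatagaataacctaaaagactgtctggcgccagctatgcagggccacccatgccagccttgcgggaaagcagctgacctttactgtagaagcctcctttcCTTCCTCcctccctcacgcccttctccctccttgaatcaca
A further Mmp12 window, chr9:7347124-7347373, held TCATGTG beginning 83 bases and TGAGTCA 44 bases before its start, letters that 3.25% and 4.46% of all windows hold. CACGTG, in 6.02% of windows, was in none of the 11. The windows of Gpnmb, Lgals3 and Apoe held none of the 4. These are matches of letters and not binding sites. Among the 9 gene bodies (GRCm38), that of Mmp12 overlaps Mmp1b on the other strand and the other 8 overlap no annotated gene.

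Each gene had its own order of cell classes, and no class was highest for all 9. Classes are set in order by the mean over mice among the 18 classes with at least 3 mice of 5 cells, and these orders are descriptions without a test. Between the 2 kinds of macrophage, Spp1, Gpnmb, Fabp5 and Apoe did not overlap, the first 3 being higher in alveolar cells and Apoe in interstitial cells. Lgals3 had its higher mean in alveolar cells, and Trem2, Mmp12 and Cd63 in interstitial cells, with overlapping ranges. Cd63, Fabp5 and Arg1 had their highest mean in a class other than macrophages.

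**Figure D1:**
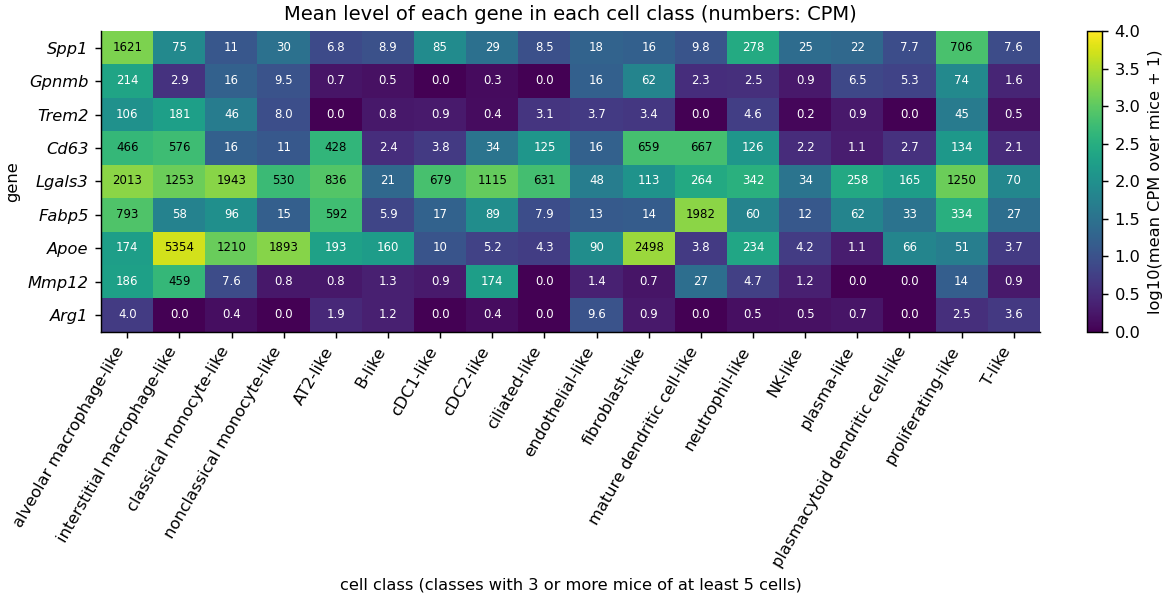
Mean CPM over mice of each of the 9 genes (rows) in each of the 18 cell classes (columns); colour is log10 of the mean CPM plus 1 and the printed number is the mean CPM. Spp1 and Gpnmb are highest in alveolar macrophage-like cells, Apoe, Trem2 and Mmp12 in interstitial macrophage-like cells, and Arg1 stays under 10 CPM in each column.

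Spp1, the secreted ligand of the set, was at 1441, 1634 and 1636 CPM in alveolar macrophage-like cells of the 3 IgG1 mice and at 798, 2013 and 2202 CPM in those of the 3 ipilimumab mice. Ipilimumab mouse 1 was lowest and the groups overlapped. The mean over mice was 1621 ± 490 CPM (SD, n = 6). Proliferating cells came next at 706 ± 712 CPM (n = 4 mice, 115 to 1724 CPM), overlapping the alveolar range, and neutrophil-like cells followed at 278 ± 172 CPM (n = 6). The proliferating class joins a part of 66 cells, whose next-best markers were those of alveolar macrophages, and another of 28 cells. Over all cells of each part Spp1 was at 1147 and 95.1 CPM. Of the 94 cells of the class 55 came from ipilimumab mouse 1. Interstitial macrophage-like cells held 44.2 to 110 CPM of Spp1, below the alveolar level of each of the 6 mice. Free RNA is one source of counts in cells that do not make a gene: in B-like cells, which should lack Spp1, 1.74% of cells had a Spp1 UMI after each cell was reduced to 2000 UMIs, against 57.7% of alveolar macrophage-like cells (median depths before reduction 5592 and 21470 UMIs, where the shares were 4.88% and 90.0%).

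Gpnmb, a transmembrane glycoprotein of lysosomes, was likewise highest in alveolar macrophage-like cells, at 214 ± 177 CPM (SD, n = 6). The mice held 167, 176 and 112 CPM (IgG1) and 100, 159 and 569 CPM (ipilimumab). Ipilimumab mouse 3 was the highest, and the remaining 5 mice lay between 100 and 176 CPM. Gpnmb was near 0 in interstitial macrophage-like cells (0 to 6.31 CPM), while fibroblast-like cells held 62.1 ± 23.9 CPM (n = 6), overlapping the proliferating class just above them.

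Lgals3 in alveolar macrophage-like cells was at 2013 ± 457 CPM (SD, n = 6). Its values were 1784, 1946 and 1672 CPM in IgG1 mice and 1801, 1958 and 2920 CPM in ipilimumab mice. Classical monocyte-like cells held almost as much, 1943 ± 329 CPM (n = 6), with overlapping ranges, and interstitial macrophage-like cells held 1253 ± 371 CPM (n = 4). Nonclassical monocyte-like cells held 480 to 663 CPM, below the lowest classical value of 1513 CPM. After reduction to 2000 UMIs, 95.1% of alveolar macrophage-like cells had a Lgals3 UMI, against 3.65% of B-like cells (99.4% and 9.66% without reduction).

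Apoe, the lipoprotein, was highest in interstitial macrophage-like cells, followed by fibroblast-like cells and monocytes. Interstitial macrophage-like cells held 3350 and 6650 CPM (IgG1 mice 1 and 2) and 4826 and 6590 CPM (ipilimumab mice 1 and 3), and the lowest of these exceeded the highest fibroblast-like value of 2881 CPM. Fibroblast-like cells (2498 ± 274 CPM, n = 6), nonclassical (1893 ± 402 CPM) and classical monocyte-like cells (1210 ± 174 CPM) followed, each overlapping its neighbour, and no further class overlapped the classical monocytes. Alveolar macrophage-like cells held only 241, 196 and 245 CPM in IgG1 mice and 26.7, 226 and 106 CPM in ipilimumab mice. After reduction to 2000 UMIs 5.39% of alveolar macrophage-like cells had an Apoe UMI, against 17.7% of B-like cells (15.5% and 30.4% without reduction). B-like cells are no measure of free RNA for this gene, since they held 108 to 230 CPM of Apoe while T-like cells held 1.97 to 5.68 CPM and NK-like cells 2.13 to 5.95 CPM.

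Trem2, the receptor, was at 164 and 137 CPM (IgG1 mice 1 and 2) and 261 and 161 CPM (ipilimumab mice 1 and 3) in interstitial macrophage-like cells. In alveolar macrophage-like cells it was at 96.9, 105 and 95.2 CPM (IgG1) and 72.0, 102 and 165 CPM (ipilimumab), overlapping the interstitial range. No other class reached the alveolar range. Classical monocyte-like cells held 36.5 to 62.8 CPM and nonclassical monocyte-like cells 0 to 18.7 CPM, ranges that did not overlap each other. Trem2 UMIs were found in 29.6% of interstitial, 15.9% of alveolar macrophage-like and 0.164% of B-like cells at 2000 UMIs, and in 72.9%, 62.2% and 0.442% without reduction.

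Mmp12, the elastase, was at 599 and 264 CPM (IgG1 mice 1 and 2) and 570 and 402 CPM (ipilimumab mice 1 and 3) in interstitial macrophage-like cells. Its alveolar values spread most of the 9 genes: 108, 81.6 and 60.5 CPM in IgG1 mice and 25.8, 125 and 716 CPM in ipilimumab mice. Without ipilimumab mouse 3 the alveolar range would stay below the interstitial one. Conventional dendritic cells of type 2 also held Mmp12 (0 to 560 CPM, 6 mice).

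Cd63, a tetraspanin of late endosomes, was broadly present. Mature dendritic cell-like (667 ± 360 CPM, n = 6), fibroblast-like (659 ± 97.1 CPM, n = 6), interstitial (576 ± 213 CPM, n = 4), alveolar macrophage-like (466 ± 197 CPM, n = 6) and AT2-like cells (428 ± 135 CPM, n = 5) overlapped each other in turn, and both monocyte classes lay far lower, at 5.48 to 34.4 CPM (classical) and 0.821 to 39.9 CPM (nonclassical). Fabp5 was highest in mature dendritic cell-like cells (1982 CPM, range 587 to 3961, 6 mice), ahead of alveolar macrophage-like cells, where it was at 634, 720 and 452 CPM (IgG1) and 519, 689 and 1742 CPM (ipilimumab). Interstitial macrophage-like cells held 37.9 to 107 CPM of it. Arg1, the arginase, was hardly present: its mean was under 10 CPM in each of the 18 classes, its highest single value was 51.8 CPM in the endothelial-like cells of IgG1 mouse 2, and in alveolar macrophage-like cells it was at 1.99 to 8.69 CPM. In basophil or mast cell-like cells, of which 25 were found and only 2 mice had 5, Gpnmb was at 1052 CPM in IgG1 mouse 1 and 68.1 CPM in ipilimumab mouse 3, Cd63 at 1613 and 2271 CPM, and Lgals3 at 3717 and 1681 CPM. In the same 2 mice these cells held Spp1 at 0 and 1817 CPM and Fabp5 at 0 and 909 CPM, and Trem2, Apoe, Mmp12 and Arg1 had no UMI.

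Over the 19 named classes the members that resembled each other most were Spp1 and Gpnmb (Pearson r = 0.74 of log2 of mean CPM plus 10), Trem2 and Mmp12 (0.70) and Cd63 and Fabp5 (0.65), whereas r was -0.02 for Spp1 and Apoe. These are correlations over 19 classes that come from the same 6 libraries, given as a description. Outside the set, among 8993 genes, the closest patterns to Spp1 were those of Clec4n (0.88), F7 (0.87) and Il1a (0.86). For Gpnmb they were Lhfpl2 (0.90), F7 (0.89) and Dhrs7b (0.87), and for Trem2 they were Fcgr1 (0.92), Prune2 (0.89) and Pdgfc (0.87). Patterns like that of Apoe included Ifi204 (0.80) and Blvrb (0.73), and Mmp12 was closest to Mrc1 (0.85), C1qb (0.83) and Adap2 (0.83). Cd63 was closest to Gabarap (0.83), Cstb (0.82) and Srxn1 (0.80), Lgals3 to Creg1 (0.86), Rnh1 (0.86) and Cebpa (0.83), and Fabp5 to Rab9 (0.74), Renbp (0.72) and Mreg (0.72). Arg1 reached 50 CPM in no class and was not compared.

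The alveolar macrophage-like class was made of 2 large clusters and 2 small parts of another cluster, and the 9 genes were not evenly spread over them. Cluster 3 (1886 cells) held more of 8 of the genes than cluster 6 (1255 cells) in each of the 6 mice, although none of the 9 genes had been used to form the clusters. The ratio of the level in cluster 3 to that in cluster 6, as the median over the 6 mice with the lowest and highest mouse in brackets, was 3.18 (2.53 to 5.28) for Spp1, 2.01 (1.25 to 4.39) for Gpnmb, 2.86 (2.65 to 3.82) for Trem2, 1.96 (1.74 to 2.65) for Cd63 and 2.51 (2.04 to 3.67) for Fabp5. The ratio was 54.5 (14.2 to 210) for the protease Mmp12 and 8.42 (2.92 to 28.1) for the lipoprotein Apoe. Arg1 was at 2.49 to 11.3 CPM in cluster 3 and at 0 to 1.71 CPM in cluster 6, where it had only 19 UMIs over the 6 mice, so that no ratio is given. Lgals3 stood near equality, with a ratio of 1.11 (0.979 to 1.32) that was above 1 in 5 of 6 mice. Median depth was alike in both clusters (19480 to 25310 UMIs per cell over mice in cluster 3 and 20130 to 24500 in cluster 6). No p is given, because cells were sorted into these clusters by other genes of the same cells.

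**Figure D2:**
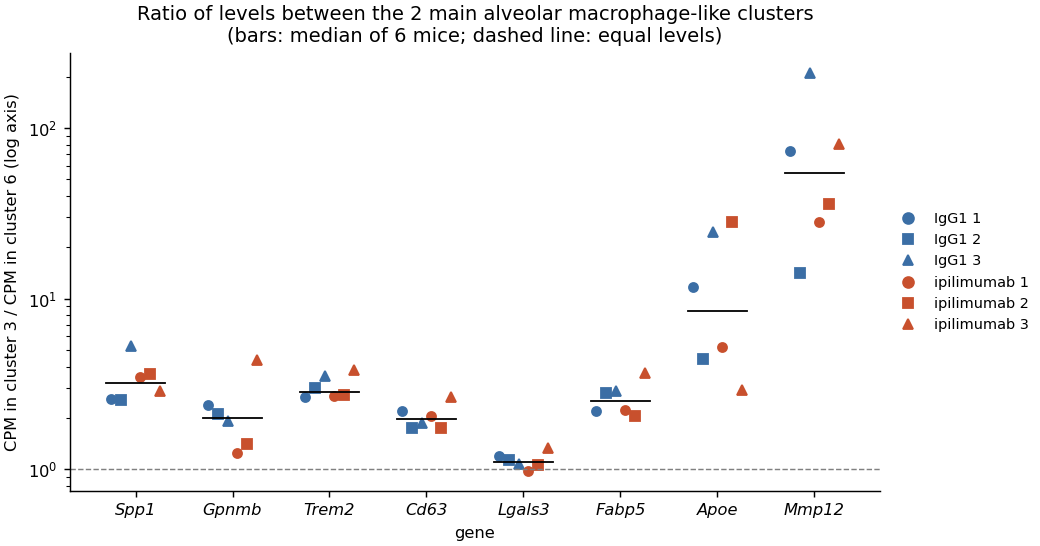
Level in cluster 3 divided by level in cluster 6 for each mouse (points, colour for treatment and shape for replicate number) on a log axis; bars are medians of 6 mice and the dashed line marks equal levels, and Arg1, with few UMIs, is not drawn. All points but 1 of Lgals3 lie above the line, and those of Mmp12 lie between 14.2 and 210.

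In cluster 3 Spp1 was at 2038, 2169 and 2730 CPM in IgG1 mice and 1268, 2737 and 2416 CPM in ipilimumab mice, and in cluster 6 at 789, 857 and 517 CPM and at 364, 758 and 839 CPM. The clusters did not overlap for Spp1. Mmp12 was at 48.7 to 607 CPM in cluster 3 and at 0.570 to 9.19 CPM in cluster 6. Cluster 3 made up 51.9%, 58.6% and 48.5% of alveolar macrophage-like cells in IgG1 mice and 39.8%, 59.6% and 68.3% in ipilimumab mice, with exact 95% binomial intervals of 34.8% to 44.9% in ipilimumab mouse 1 and 64.4% to 72.0% in ipilimumab mouse 3. These intervals cover the counting of cells alone.

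The 2 small parts were each drawn mostly from 1 library. The shallow part held 132 cells, 91 of them from ipilimumab mouse 1, where they were 23.8% of its alveolar macrophage-like cells (exact interval 19.6% to 28.4%) with a median of 1985 UMIs; in the other mice this part made up 0 to 2.05%. The Chil3-rich part, with Inhba and Chil3 among its leading genes, held 61 cells, 49 of them from ipilimumab mouse 3, where they were 8.10% (6.05% to 10.6%), against 0 to 0.673% in the other mice. Of 9 markers of alveolar macrophages Chil3 stood out in ipilimumab mouse 3. It was at 27510 CPM in the alveolar macrophage-like cells of that mouse, against 5806 to 7633 CPM in the other 5 mice. Inhba, a subunit of activin, was at 221 CPM there against 0.837 to 22.3 CPM. Both were named after their values were seen. Of the other markers Atp6v0d2 was also highest in that mouse (1033 against 671 to 816 CPM). Ear1 (190 against 295 to 414 CPM), Siglecf (47.7 against 62.9 to 94.3 CPM) and Plet1 (1194 against 1212 to 1411 CPM) were lowest there. So were Krt79 (96.6 against 156 to 259 CPM) and Fabp1 (55.9 against 94.8 to 151 CPM). Marco and Pparg were neither highest nor lowest in that mouse.

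Of the clusters in the alveolar macrophage-like class, the Chil3-rich part held high levels of most of the set. In ipilimumab mouse 3 it had 3459 CPM of Spp1, 1448 CPM of Gpnmb, 1530 CPM of Cd63, 4911 CPM of Lgals3, 3347 CPM of Fabp5 and 2823 CPM of Mmp12. Its 5 cells in ipilimumab mouse 2 had 4929, 1234, 1691, 3786, 3744 and 1005 CPM of the same genes. Trem2 was at 241 and 436 CPM in these 2 mice. Apoe differed between them, at 119 CPM in ipilimumab mouse 3 and 2935 CPM in ipilimumab mouse 2. High levels in ipilimumab mouse 3 were not limited to this part. The 413 cells of cluster 3 in that mouse held 566 CPM of Gpnmb, 902 CPM of Cd63 and 1865 CPM of Fabp5. In cluster 3 of the other mice these genes were at 112 to 213, 407 to 525 and 667 to 921 CPM. Lgals3, Mmp12, Trem2 and Arg1 in cluster 3 were also highest in ipilimumab mouse 3, while Spp1 and Apoe were not.

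Within the alveolar macrophage-like class the genes differed in how few cells carried them. For Lgals3 the 5% of cells with most of its UMIs held 15.3% to 21.3% of them over the 6 mice, and for Cd63 21.6% to 37.2%. For Trem2 they held 27.3% to 41.9%, for Fabp5 27.5% to 55.1%, for Gpnmb 36.4% to 59.5% and for Spp1 46.7% to 55.1%. For Mmp12 the share was 91.1% to 94.0% in 5 mice and 66.6% in ipilimumab mouse 3, and for Apoe it was 83.3% to 98.0%. Spp1 was thus carried at a high level by a minority of alveolar cells in each mouse, and Apoe, as well as Mmp12 outside ipilimumab mouse 3, by very few. These shares depend on the UMIs per cell as well, and cells of the shallow part hold few.

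**Figure D3:**
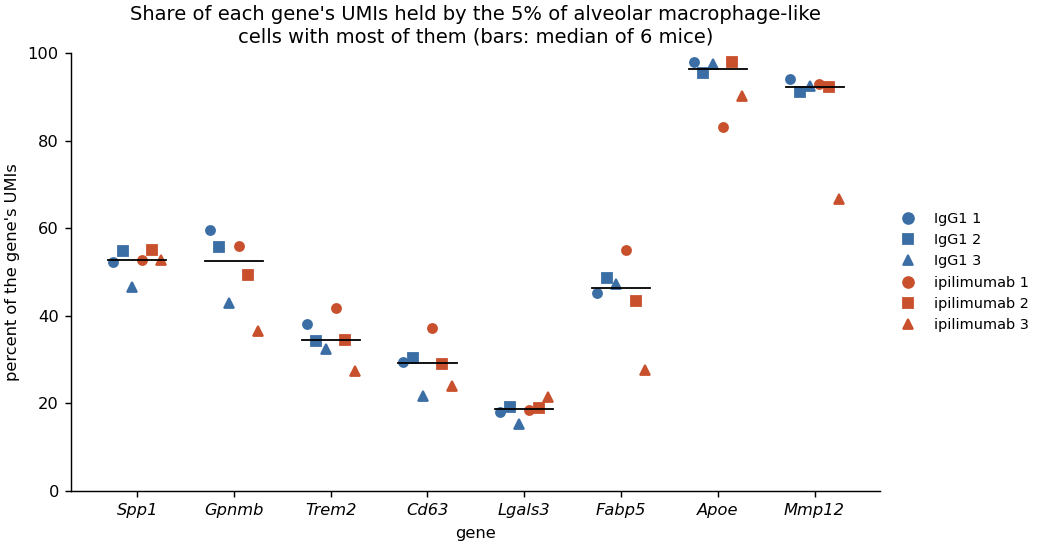
Percent of a gene's UMIs held by the 5% of alveolar macrophage-like cells with most of them, for each mouse (points) and as the median of 6 mice (bars); Arg1, with few UMIs, is not drawn. Lgals3 lies lowest (15.3% to 21.3%) and Apoe and Mmp12 highest, with ipilimumab mouse 3 below the other mice for Gpnmb, Trem2, Fabp5 and Mmp12.

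The Apoe signal of the class came from 87 cells with over 1000 CPM of Apoe (10, 26 and 11 in IgG1 mice, 3, 18 and 19 in ipilimumab mice), 2.61% of alveolar macrophage-like cells. They carried 57.1% to 94.8% of the Apoe UMIs of the class, and in the remaining cells Apoe was at 11.6 to 25.5 CPM. Barcodes that held only free RNA had 278 to 364 CPM. An upper estimate of the share of free RNA in the class, from markers of other lineages, was 3% to 8.89% over mice. Whether the Apoe of the remaining cells is free RNA was not tested. Of the 87 cells 70 were in cluster 3, 9 in cluster 6 and 8 in the Chil3-rich part. Trem2 was higher in them than in the other alveolar macrophage-like cells in 6 of 6 mice (420 against 102 CPM over all cells), as were Mmp12 (726 against 204 CPM) and Lgals3 (2946 against 2063 CPM). Spp1 (3651 against 1671 CPM), Gpnmb (840 against 220 CPM), Cd63 and Fabp5 were higher in 5 of 6 mice. The cells were picked by their Apoe level, so that these are values without a test, and whether some of them are doublets or interstitial macrophages was not tested.

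Co-detection in single cells was compared at 2000 UMIs per cell, as the expected share over all draws, and is described by the ratio of the share of cells with both genes to the product of the 2 single shares. A ratio of 1 means that the genes were found together no more often than their shares give. Gpnmb and Trem2 were found together in 4.93% of alveolar macrophage-like cells, with a ratio of 1.43 as the median of 5 mice with enough cells (1.41 to 1.62). Gpnmb also went with Fabp5 (1.44, 1.34 to 1.51, 6 mice) and Cd63 (1.37, 1.31 to 1.47, 6 mice). Trem2 went with Apoe (2.21, 2.00 to 2.46, 3 mice), Mmp12 (1.89, 1.65 to 2.04, 3 mice), Cd63 (1.28, 1.18 to 1.38, 6 mice) and Fabp5 (1.27, 1.17 to 1.39, 6 mice). Because Spp1 was found in 57.7% of cells, its ratios have a low ceiling and cannot be set beside those of rarer genes. Its ratio was 1.18 (1.10 to 1.25, 6 mice) for Trem2, 1.19 (1.05 to 1.24, 5 mice) for Mmp12, 1.12 (1.04 to 1.14, 6 mice) for Fabp5, 1.08 (1.03 to 1.13, 6 mice) for Cd63 and 1.05 (0.9997 to 1.06, 6 mice) for Gpnmb. Trem2 was found in 18.6% of cells with a Spp1 UMI and in 12.4% of cells without one, and Gpnmb in 20.8% and 18.3%. Within cluster 3 alone the ratio of Gpnmb and Trem2 was 1.44 (1.31 to 1.49, 5 mice) and that of Spp1 and Gpnmb 1.02 (0.978 to 1.08, 6 mice).

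UMIs of Spp1, Trem2 and Gpnmb together were found in 3.44% of alveolar macrophage-like cells, against 1.81% by the product of the 3 shares. The share was 4.62% in cluster 3, 0.721% in cluster 6 and 24.3% in the Chil3-rich part, against products of 2.87%, 0.540% and 21.4% within them. Without reduction of depth it was 38.2% of alveolar macrophage-like cells. At 2000 UMIs it was 0.0465% of interstitial macrophage-like cells, where Gpnmb is near 0, and 1.75% of them without reduction. Only 57 of these cells entered, which leaves shares of up to 5.26% unresolved. Cells with UMIs of 5 or more of the 9 genes, in 1 random draw of 2000 UMIs, made up 9.30%, 10.8% and 7.17% of alveolar macrophage-like cells in IgG1 mice and 5.39%, 9.81% and 30.9% in ipilimumab mice. No B-like cell among 8472 had 5, which allows a share of up to 0.0354%.

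The main question of the design was whether blocking CTLA-4 changed these genes. In alveolar macrophage-like cells no gene of the set differed between ipilimumab and IgG1 mice beyond the spread between mice. The values above 0 rested on ipilimumab mouse 3, since without it the log2 fold changes of 8 genes lay between -0.55 and 0.03. edgeR's quasi-likelihood test over 12527 genes called 0 of them (percent called 0), where a call needed an adjusted p below 0.05 with a log2 fold change beyond 0.3 in either direction; 509 had an unadjusted p under 0.05, and DESeq2 called 2, neither of them among the 9. All 9 genes passed the filter on low counts. Of the 9, 8 had a log2 fold change above 0 and 1 below, with a median of 0.44 against 0.0096 over all genes tested. In none of the 9 did every ipilimumab mouse lie above or below every IgG1 mouse, while 5.59% of all genes lay above and 3.73% below in that way.

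**Figure D4:**
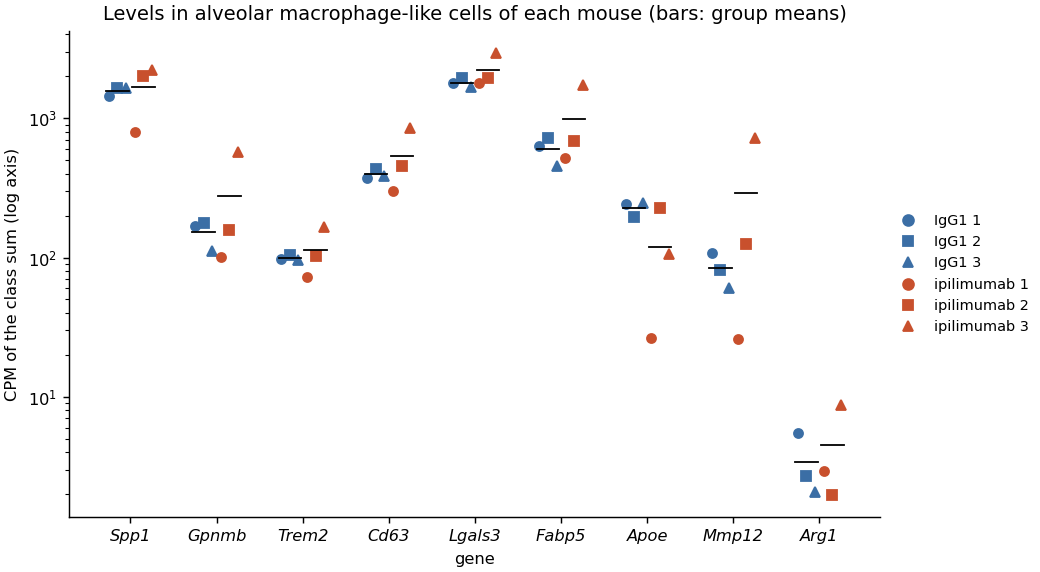
CPM of the 9 genes in alveolar macrophage-like cells of each mouse on a log axis (points, colour for treatment and shape for replicate number); bars are group means of 3 mice. Ipilimumab mouse 3 is the highest point for 8 of the 9 genes, Apoe being the exception, and ipilimumab mouse 1 is the lowest for Spp1, Gpnmb, Trem2, Cd63, Apoe and Mmp12.

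Mmp12 had the largest difference, a log2 fold change of 1.83 ± 0.955 (SE; edgeR adjusted p = 0.886). Gpnmb followed at 0.89 ± 0.585 and Fabp5 at 0.73 ± 0.435, both with an adjusted p of 0.886. Cd63 was at 0.45 ± 0.345, Arg1 at 0.44 ± 0.592, Lgals3 at 0.31 ± 0.201, Trem2 at 0.21 ± 0.277 and Spp1 at 0.10 ± 0.344, with adjusted p of 0.886 to 0.959. Apoe alone was below 0, at -0.90 ± 0.592 (edgeR adjusted p = 0.886). Without ipilimumab mouse 3 the log2 fold change was -0.11 for Mmp12, -0.24 for Gpnmb, -0.02 for Fabp5, -0.10 for Cd63, -0.20 for Trem2, -0.17 for Spp1, -0.55 for Arg1 and 0.03 for Lgals3. Without ipilimumab mouse 1, the library that stood apart, they were 2.37, 1.29, 1.04, 0.75, 0.46, 0.45, 0.66 and 0.46 in the same order, and Apoe was at -0.43. Without ipilimumab mouse 2 Apoe was at -1.74 (edgeR adjusted p = 0.795). The adjusted p of the 9 genes without ipilimumab mouse 1 ranged from 0.645 to 0.749, so that leaving out that library gave no call either.

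**Figure D5:**
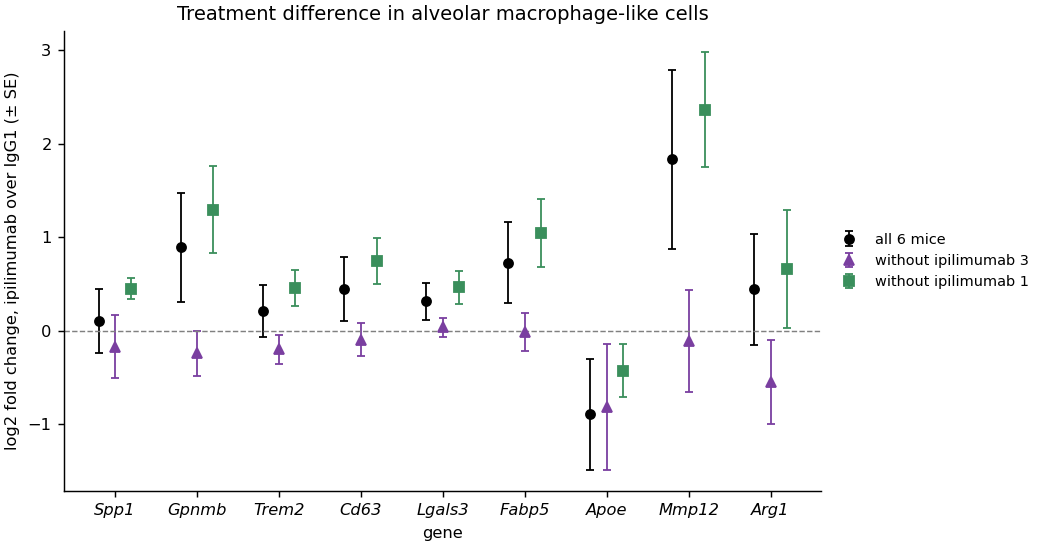
Log2 fold change of ipilimumab over IgG1 in alveolar macrophage-like cells from edgeR (points, with bars of 1 SE) for all 6 mice, without ipilimumab mouse 3 and without ipilimumab mouse 1. Mmp12, Gpnmb and Fabp5 lie above 0 with all mice and at -0.11, -0.24 and -0.02 without ipilimumab mouse 3.

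Markers of other cell types were also summed in these cells. Those of airway secretory cells (5 of 5 with UMIs) summed to 7.67 to 13.7 CPM in alveolar macrophage-like cells of IgG1 mice and to 27.9 to 39.9 CPM in those of ipilimumab mice, highest in ipilimumab mouse 1. Markers of interstitial macrophages (7 of 7 with UMIs) summed to 85.3 to 101 CPM and to 38.9 to 131 CPM, lowest in ipilimumab mouse 1 and highest in ipilimumab mouse 2. Neither was highest in ipilimumab mouse 3, where 8 of the 9 genes were. The part of either in the differences was not tested.

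The share of alveolar macrophage-like cells with a Spp1 UMI, at 2000 UMIs per cell, was 57.0%, 56.5% and 59.2% in IgG1 mice and 47.4%, 60.1% and 62.2% in ipilimumab mice. The means were 57.5% ± 1.45 and 56.6% ± 8.01 (SD, n = 3 each), a difference of -0.97 percentage points (exact two-sided permutation test, p = 1, where the smallest p of 3 against 3 is 0.1). Without reduction of depth they were 91.6% and 87.6%. The share of alveolar and interstitial macrophage-like cells with Spp1, Trem2 and Gpnmb was 2.12%, 2.47% and 2.69% in IgG1 mice and 1.42%, 2.76% and 7.79% in ipilimumab mice. The difference of means was 1.56 percentage points (exact two-sided permutation test, p = 0.7, n = 3 each), and without ipilimumab mouse 3 it was -0.34. Reduction left out 11 alveolar macrophage-like cells of IgG1 mice and 57 of ipilimumab mice that had under 2000 UMIs.

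In interstitial macrophage-like cells 6 of the 9 genes passed the filter on low counts (Gpnmb, Fabp5 and Arg1 did not), and none was called (0 of 3041 genes by edgeR, percent called 0, 162 at an unadjusted p under 0.05 and 0 by DESeq2). All 6 had a log2 fold change above 0, with a median of 0.34 against 0.0023 over all genes tested. Cd63 was highest, at 385 and 426 CPM in IgG1 mice and 652 and 842 CPM in ipilimumab mice, a log2 fold change of 0.91 ± 0.295 (edgeR adjusted p = 0.865). It was the one gene of the 6 whose groups did not overlap, where 15.7% of all genes tested lay above in that way with 2 mice per group. Spp1 was at 0.42 ± 0.526, Lgals3 at 0.26 ± 0.326, Apoe at 0.21 ± 0.310, Trem2 at 0.50 ± 0.406 and Mmp12 at 0.20 ± 0.431.

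In classical monocyte-like cells 7 of the 9 genes passed the filter (Mmp12 and Arg1 did not) and none was called (0 of 7020 by edgeR, percent called 0, 311 at an unadjusted p under 0.05 and 3 by DESeq2, with a median log2 fold change of 0.17 for the 7 genes against 0.0024 over all genes tested). Cd63 was at 13.2, 10.3 and 10.2 CPM in IgG1 mice and at 22.4, 5.48 and 34.4 CPM in ipilimumab mice, overlapping, with a log2 fold change of 1.01 ± 0.446 (edgeR adjusted p = 0.9999). Lgals3, at 1625, 2076 and 1513 CPM and at 1875, 2273 and 2296 CPM, had a log2 fold change of 0.32 ± 0.139 (edgeR adjusted p = 0.9999). On the same scale Spp1 was at 0.90 ± 0.606, Gpnmb at 0.11 ± 0.808 and Trem2 at 0.090 ± 0.2445. Fabp5 was at 0.15 ± 0.262 and Apoe at 0.17 ± 0.1355. No gene of the 7 had groups that did not overlap, against 3.76% of all genes with every ipilimumab mouse above and 5.07% below. In nonclassical monocyte-like cells Lgals3 and Apoe alone passed, and none was called (0 of 6173 by edgeR, percent called 0, 313 at an unadjusted p under 0.05 and 3 by DESeq2). Lgals3 was at 572, 663 and 492 CPM in IgG1 mice and at 491, 480 and 480 CPM in ipilimumab mice, lower in each (5.83% of all genes tested lay below and 5.43% above in that way), with a log2 fold change of -0.24 ± 0.137 (edgeR adjusted p = 0.959). Apoe had overlapping groups and a log2 fold change of -0.083 ± 0.172.

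Over the other named classes 47 pairs of a gene of the set and a class could be tested, and edgeR called 0 of them (percent called of all genes 0.00829 in T-like, 0.0156 in ciliated-like and 0 in the other classes), while DESeq2 called 2. The pairs nearest to a call were in AT2-like cells, the surfactant-making cells of the alveolus: Apoe was at 45.3 and 99.4 CPM in IgG1 mice 1 and 2 and at 345, 263 and 215 CPM in ipilimumab mice, a log2 fold change of 1.95 ± 0.356 (edgeR adjusted p = 0.147). Fabp5 was at 119 and 155 CPM and at 1082, 1397 and 209 CPM in the same cells, a log2 fold change of 2.58 ± 0.658 (edgeR adjusted p = 0.267), and these were the 2 pairs that DESeq2 called. IgG1 mouse 3 had 2 AT2-like cells and was left out, IgG1 mice 1 and 2 had 10 and 15, and 167 of the 224 AT2-like cells came from ipilimumab mouse 1, with a median of 1020 UMIs. An upper estimate of the share of free RNA in AT2-like cells was 6.51% and 7.1% in IgG1 mice 1 and 2. In ipilimumab mice 1, 2 and 3 it was 29.3%, 29.9% and 7.76%. Barcodes that held only free RNA had 278 to 364 CPM of Apoe.

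Whether treatment went with different changes in the 2 kinds of macrophage was tested by the interaction of class and treatment with the mouse as a block, in IgG1 mice 1 and 2 and ipilimumab mice 1 and 3. The test called 13 of 11502 genes (percent called 0.113), and Apoe was 1 of them. Its treatment effect in alveolar macrophage-like cells, minus that in interstitial macrophage-like cells, was -2.35 ± 0.367 on the log2 scale (edgeR adjusted p = 8.745e-07). This SE and p rest on variability pooled over genes and do not measure the spread of Apoe between mice. Leaving out 1 mouse at a time gave -3.21 to -1.53. In these 4 mice Apoe was at 241 and 196 CPM (IgG1) and 26.7 and 106 CPM (ipilimumab) in alveolar cells. Ipilimumab mouse 2, left out for want of interstitial cells, had 226 CPM in alveolar cells, inside the IgG1 range. The alveolar values rest on 3 to 26 Apoe-rich cells per mouse, as given above. DESeq2 gave -2.36 with an adjusted p of 1, classes gated by markers per cell gave -0.71 with an adjusted p of 1 in edgeR, and without IgG1 mouse 1 the adjusted p was 0.334 in edgeR. The other 8 genes had an adjusted p of 1 in this test by edgeR. For Mmp12 the interaction, 0.26 with all 4 mice, was -2.52 without ipilimumab mouse 3 and 2.92 without ipilimumab mouse 1.

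The partners of these genes were followed in 6 lists of related genes, of which no gene was called in alveolar macrophage-like cells by edgeR. Trem2 signals through Tyrobp and the kinase Syk: of 5 genes of adaptors and signalling 2 were above and 3 below 0, with a median log2 fold change of -0.04. Tyrobp was at 899 and 934 CPM (means of IgG1 and ipilimumab mice), and Syk at 556 and 541 CPM. Of 8 receptors of Spp1 7 were tested, 3 above and 4 below 0 (median -0.08), and Cd44 was at 3470 and 3046 CPM while Itgb1 was at 259 and 246 CPM. Of 8 Apoe receptors and genes of lipid export 7 were tested, 3 above and 4 below 0 (median -0.07). The exporter Abcg1 was at 1715 and 1484 CPM and the receptor Lrp1 at 489 and 467 CPM.

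Of 16 genes of the lysosome and lipid storage 11 were above and 5 below 0, with a median of 0.12. The protease Ctsd was at 4812 and 5407 CPM and the tetraspanin Cd9 at 3624 and 3532 CPM. Ctsk, named after its values were seen, was at 479 to 582 CPM in 5 mice and 1696 CPM in ipilimumab mouse 3. Of 10 growth factors, proteases and their inhibitors 8 were above and 2 below 0 (median 0.30), with Mmp19 at 440 and 463 CPM and Tgfb1 at 342 and 335 CPM. All 6 genes of alternative activation were below 0, with a median of -0.27, and none was called. Mrc1, the mannose receptor, was at 1380, 1352 and 1739 CPM in IgG1 mice and 1143, 1309 and 1127 CPM in ipilimumab mice, a log2 fold change of -0.32 ± 0.135 (edgeR adjusted p = 0.886), and Stat6 was at 76.9 and 75.5 CPM. Retnla, named after its values were seen, had a log2 fold change of -4.58, which came from 142 CPM in IgG1 mouse 1 against 0 to 2.81 CPM in the other 5 mice.

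In the other classes these lists held no called gene either. In interstitial macrophage-like cells the medians ran from -0.04 for the Trem2 adaptors, with 4 genes tested, to 0.72 for the growth factors and proteases, of which 6 of 7 were above 0. In classical monocyte-like cells they ran from -0.04 to 0.48, and all 4 tested growth factor and protease genes and all 4 of alternative activation were above 0. In nonclassical monocyte-like cells all 5 genes of the Trem2 adaptors and signalling were below 0, with a median of -0.11.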

How the data were processed

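The authors sequenced 1 droplet library per mouse and deposited raw barcode matrices of UMI counts, which were used as counts with no normalization. The file headers name Cell Ranger 4, the submitters' processing notes Cell Ranger 7.0.0 and the study's methods another version, so the version is uncertain. The reads were mapped to mouse genes by the authors, and their later steps (removal of ambient RNA, filtering, clustering) are not in these counts.

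Cells were called per library by UMI total and by a test of the profile against ambient RNA (barcodes of rank 45000 to 90000, false discovery rate 0.01), with at least 200 genes and at most 10% mitochondrial UMIs. Doublets were marked with simulated doublets at an assumed 0.8% per 1000 cells and removed. Cells were clustered on 2000 variable genes, 10 principal components and 20 neighbours (leidenalg 0.10.2, resolution 0.8). Clusters were named by fixed markers, and clusters of mixed markers or few UMIs were clustered again.

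UMIs were summed per mouse and class (at least 5 cells) and tested with edgeR 4.0.16 (quasi-likelihood, TMM, filterByExpr, R 4.3.3) over all genes with Benjamini-Hochberg adjustment, and called where the adjusted p was below 0.05 with a log2 fold change beyond 0.3 in either direction. DESeq2 1.42.0 was an alternative. The fits and calls were tested on simulated data. Shares of cells were compared by exact permutation tests on mice at 2000 UMIs per cell, as the expected share over all draws, which replaced a single random draw after single draws were seen to differ. Shares of single libraries have exact 95% binomial intervals, which cover counting error only.

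The members and lists were chosen with earlier results of these data known. Each member that passed the filter on low counts is named in the comparisons of treatment within the macrophage-like and monocyte-like classes. Of each list its called genes, or otherwise its 2 genes of highest mean CPM in alveolar macrophage-like cells, are named, and for each member the 3 genes most alike over classes. One such gene is not reported here. Positions are GRCm38, and promoter sequences are RefSeq, GRCm38.p6. Alternatives tried were DESeq2, other size factors, no filter on low counts, other cell calling, doublets kept, resolutions 0.4 and 1.6, marker gates per cell, ambient RNA subtracted, the replicate number as a block, 1000 UMIs per cell and leaving out each mouse. Single clusters in place of the alveolar macrophage-like class were added after the data were seen.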

Additional observations from a re-analysis of the deposited data

Results flagged for a closer look

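One result met a rule for a closer look, a treatment effect that differed between the 2 kinds of macrophage. For Apoe, the log2 fold change of ipilimumab over IgG1 in alveolar minus that in interstitial macrophage-like cells was -2.35 (edgeR adjusted p = 8.745e-07). It was computed in IgG1 mice 1 and 2 and ipilimumab mice 1 and 3. Leaving out each of these mice gave -3.21 to -1.53, a spread between mice that the adjusted p does not measure. The adjusted p was 1 with DESeq2, 1 with marker gates per cell and 0.334 without IgG1 mouse 1, and the call held in the other alternatives run, with values of -3.21 to -1.53. In alveolar macrophage-like cells 57.1% to 94.8% of the Apoe UMIs of a mouse lay in 3 to 26 cells, and ipilimumab mouse 1, with 3 of them, was the library that stood apart in its number of barcodes. The part of these cells and of that library in the difference was not tested.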

How the results depend on the processing

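The number of called genes rose from 0 in alveolar macrophage-like cells to 2 with DESeq2 and 2 without a filter on low counts. Interstitial macrophage-like cells gave 20 calls without the filter. In classical monocyte-like cells it was 3 with DESeq2, 40 without the filter and 2 with ambient RNA subtracted, and in nonclassical monocyte-like cells 3 with DESeq2 and 48 without the filter. Spp1 and Gpnmb, not tested by the main fit in nonclassical monocyte-like cells, were each called there in 1 setting, of 3 and 2 that tested them. Both were highest in ipilimumab mouse 3, at 137 and 57.0 CPM, against 2.92 to 12.4 and 0 CPM in the other mice. The interaction of Mmp12 was called in 2 of 16 settings, with values of -2.52 to 2.92 over all settings. Of the members in other classes DESeq2 called 2 and the fit without the filter 9. The interaction called 0 genes with DESeq2, 0 with marker gates and 29 with ambient RNA subtracted. Leaving out 1 mouse at a time gave 0 to 34 calls in interstitial macrophage-like, 0 to 7 in classical and 0 to 1 in nonclassical monocyte-like cells, 0 to 1 members in other classes and 12 to 49 genes in the interaction, and no call in alveolar macrophage-like cells.

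The same replicate numbers did not pair the mice (correlations of deviations 0.130, 0.029 and -0.137). The replicate block gave 1 member called in the other classes, Fabp5 in AT2-like cells, and a log2 fold change of -0.036 for Spp1 in alveolar macrophage-like cells. The block could not be fitted in interstitial macrophage-like cells.

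Some directions turned, and those named here are of members that were not called. In alveolar macrophage-like cells Spp1 was at -0.10 in cluster 3 alone and -0.15 in cluster 6 alone, and Trem2 at -0.025 in cluster 6 alone. In interstitial macrophage-like cells Apoe was at -0.47 with marker gates and Mmp12 at -0.075 at resolution 1.6. In classical monocyte-like cells Trem2 was at -0.092 with marker gates, and Fabp5 at -0.0015 at resolution 0.4 and -0.10 with ambient RNA subtracted. In nonclassical monocyte-like cells Apoe was at 0.12 and 0.21 at resolutions 0.4 and 1.6. The interaction of Lgals3 was -0.37 with doublets kept, -0.27 at resolution 1.6 and -0.61 with marker gates. Over all settings the interaction ran from -6.375 to 6.22 for Gpnmb, -0.78 to 1.68 for Fabp5 and -0.48 to 1.775 for Arg1. Members in other classes turned too, such as Spp1 in endothelial-like cells, which ran from -0.94 to 1.21. No class was named classical monocyte-like at resolution 1.6.

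Leaving out 1 mouse at a time, the log2 fold change in alveolar macrophage-like cells ranged from -0.17 to 0.45 (Spp1), -0.24 to 1.29 (Gpnmb), -0.20 to 0.46 (Trem2), -0.10 to 0.75 (Cd63), -0.018 to 1.04 (Fabp5), -0.11 to 2.37 (Mmp12), -0.55 to 0.92 (Arg1), 0.034 to 0.46 (Lgals3) and -1.74 to -0.43 (Apoe). In interstitial macrophage-like cells it ranged from -0.20 to 0.66 (Lgals3), -0.19 to 0.86 (Apoe) and -0.22 to 0.90 (Mmp12), and in classical monocyte-like cells from -0.086 to 1.49 (Spp1), -2.13 to 0.86 (Gpnmb), -0.18 to 0.26 (Trem2) and -0.14 to 0.36 (Fabp5). For Apoe in nonclassical monocyte-like cells it was -0.29 to 0.15. The interaction ranged from -1.89 to 0.50 (Spp1), -1.45 to 0.60 (Trem2), -1.28 to 0.012 (Cd63), -0.82 to 0.86 (Lgals3), -3.21 to -1.53 (Apoe) and -2.52 to 2.92 (Mmp12). The difference in the share of cells with Spp1 ranged from -3.79 to 3.62 percentage points, and that with Spp1, Trem2 and Gpnmb from -0.34 to 2.85. Over 678 values under alternatives, 599 kept their direction and their side of the threshold.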

Other observations

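Of the cells without a class name, 1 part of a cluster (22 cells, whose leading genes are of heart muscle) held Spp1 at 10970 CPM in ipilimumab mouse 3 and 1457 CPM in ipilimumab mouse 1, and Mmp12 at 4109 and 56.0 CPM. It is not used in a comparison. In the barcodes that held only free RNA Spp1 was at 388 CPM in ipilimumab mouse 1 and 669 to 1456 CPM in the other 5 mice, and Mmp12 was at 574 CPM in ipilimumab mouse 3 and 23.5 to 116 CPM in the other 5, so that free RNA had the same lowest mouse for Spp1 and the same highest mouse for Mmp12 as the alveolar macrophage-like cells. Gpnmb (290 against 31.0 to 81.0 CPM), Cd63 (462 against 111 to 279 CPM) and Fabp5 (868 against 146.5 to 414 CPM) were also highest in ipilimumab mouse 3. So were Lgals3 and Arg1. Spp1, Trem2 and Apoe in free RNA were highest in ipilimumab mouse 2.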
